A study of Saccharomyces cerevisiae with 14 samples.

Results

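The change of the strain ratio between 24 and 72 h of induction was taken from 9 of the 14 cDNA slides of the series, 4 at 24 h (replicates A to D) and 5 at 72 h (replicates A to E). The other 5 slides, at 48 h, entered only the estimate of the spread and the description of the course. Each slide carried cDNA of EPY330 and of EPY338 side by side, and every value below is log2(EPY330/EPY338), so values above 0 mark genes with more transcript in EPY330. EPY330 carries pESC-Leu2d with ADS, AMO and CPR, the plant genes that turn farnesyl diphosphate into artemisinic acid. EPY338 carries the same plasmid with AMO inactivated by a point mutation, and its pathway ends at amorphadiene. Both are the MATα strain EPY300 with lys2Δ0 and ura3Δ0 repaired. They share his3Δ1, leu2Δ0, the galactose-driven tHMGR, upc2-1 and ERG20, and ERG9 under the methionine-repressible MET3 promoter. Cells were induced in rich galactose medium (YPG) supplemented with methionine, and RNA of 5 transformants per strain was pooled in equal amounts. Within a time point, every slide was hybridised with the same RNA pools. The replicates are therefore technical, and variation among transformants enters no test. The dyes were swapped on 0 slides.

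The question was which functions gained or lost in the producer relative to the control as the culture aged. When sugar runs out, yeast leaves fermentation for the oxidation of ethanol, acetate and lactate. Ribosome genes are turned down, and genes of storage, stress tolerance and fatty acid oxidation are turned on. Genes for the use of maltose and related sugars form small subtelomeric families, each with a glucosidase, a transporter and an activator. A strain ratio that moves with time says that the difference between the strains in such a program changed in size or in direction. It does not say which strain moved.

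Of the 6040 ORFs in the table, 5814 had a value on at least 3 slides at both times and were tested. The slides fell into 3 sets by their correlation over genes, which no label names. One set held the 24 h replicates B and D with 3 slides of 48 h. The second held 72 h replicates A, B and C alone. The third held slides of all times, among them 24 h replicates A and C and 72 h replicates D and E. Pairs of a 24 h and a 72 h slide correlated at 0.70 to 0.75 over genes within the third set (4 pairs) and at 0.0059 to 0.61 across sets (16 pairs). Genes are not independent replicates, and these correlations carry no test. Because the sets hold unequal shares of the times, differences from limma on all 14 slides are set beside those with the set as a block. In places they are also given over the 4 slides of the third set. The second set holds no other time, so with the block the 72 h level rests on replicates D and E. Both fits share slides, and the sets were drawn from these same ratios. A call kept with the block is therefore not independent support for the call on all slides. The origin of the sets was not tested.

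**Figure D1:**
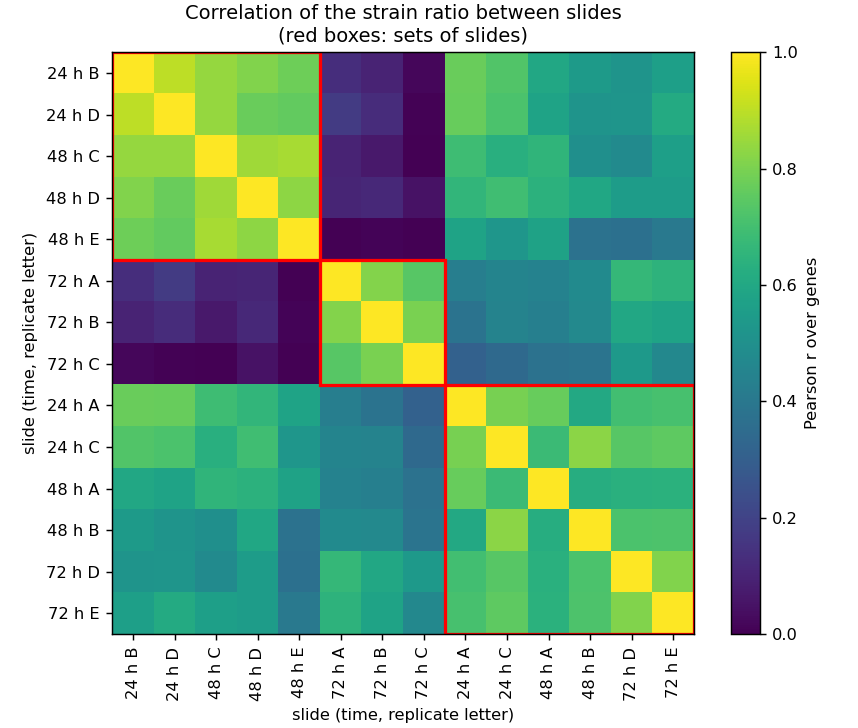
Pearson correlation of log2(EPY330/EPY338) over genes between each pair of the 14 slides (colour scale from 0 to 1), ordered by slide set. The red boxes mark the 3 sets: the 72 h replicates A, B and C correlate weakly with the 24 h replicates B and D, while 72 h replicates D and E correlate at 0.70 to 0.75 with 24 h replicates A and C.

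In the fit of all slides, 279 genes were higher at 72 h than at 24 h in the producer relative to the control (4.8% of genes tested) and 499 were lower (8.58%), at a limma adjusted p under 0.05. With quantile normalization between slides the split was 650 higher and 714 lower. The 24 h and 72 h slides did not overlap for 503 genes that were higher (8.65%) and 612 that were lower (10.5%). The change was more than 2-fold for 43 of the higher and 197 of the lower genes. With the slide set as a block, 9 genes were called higher (0.155%) and 19 lower (0.327%), and 21 of these 28 were called in the same direction in the fit of all slides. The median change over the 778 called genes was 0.86 in the fit of all slides, 0.41 with the set as a block and 0.46 over the 4 slides. Leaving out one slide gave 164 called genes without 24 h replicate B, 212 without 24 h D, 267 without 72 h A, 254 without 72 h B, 273 without 72 h C and 1256 without 48 h B. The other 8 slides gave 608 to 1064.

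**Figure D2:**
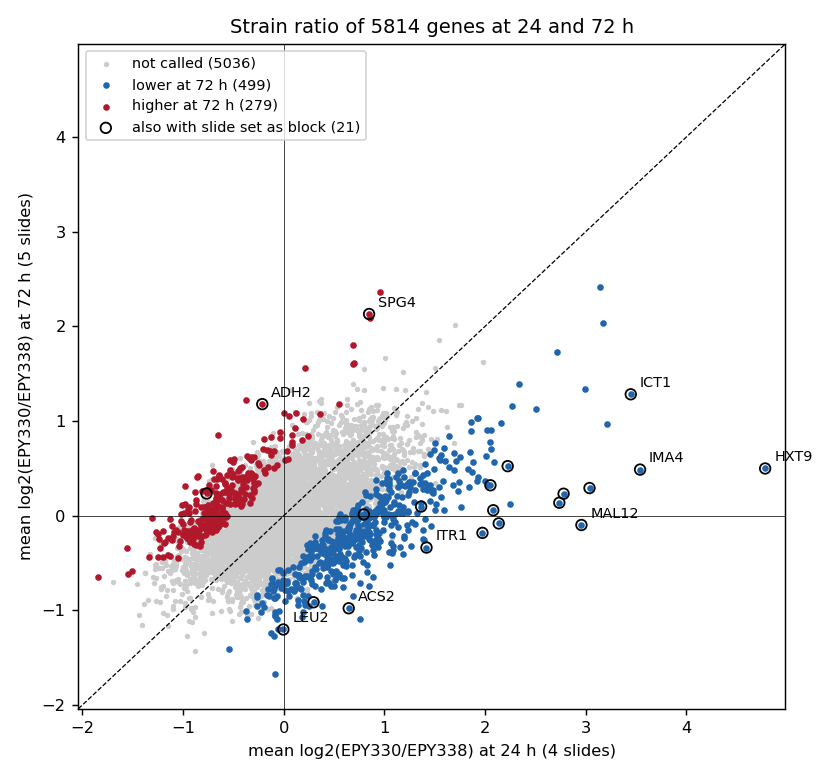
Mean log2(EPY330/EPY338) of 5814 genes at 24 h (x axis, 4 slides) and at 72 h (y axis, 5 slides). Blue points are the 499 genes called lower at 72 h, red points the 279 called higher, grey points are not called, the dashed line is equality, and black circles mark the 21 genes called also with slide set as a block.

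For most of the called genes the strains differed at 24 h and were not told apart at 72 h. Of the 499 genes that fell, 273 had a mean above 0 at 24 h and a mean not away from 0 at 72 h (limma adjusted p under 0.05 for a mean called away from 0). A further 50 stayed above 0, 119 went from no difference to below 0, and 35 passed from above to below. Of the 279 genes that rose, 188 were below 0 at 24 h and not away from 0 at 72 h, 52 went from no difference to above 0, and 8 passed from below to above. The 43 genes that changed sides numbered 11 to 87 when single slides were left out and 4 at an adjusted p under 0.01.

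All 7 glucosidase genes of maltose and isomaltose fell. At 24 h the maltase gene MAL12 had log2 ratios of 2.74, 2.90, 3.26 and 2.94 on the 4 slides, and at 72 h it had -0.01, -0.13, -0.03, -0.32 and -0.01. The groups were far apart, and the 72 h slides sat at equal levels of the strains. The difference was -3.06 ± 0.18 (SE, limma adjusted p = 1.2e-08), or 8.31-fold, and -3.14 with the set as a block (adjusted p = 3.6e-06). The other maltase, MAL32, went from 1.86, 2.02, 2.11 and 2.33 to 0.39, 0.02, 0.11, -0.05 and -0.19. Its groups did not overlap either, and its difference was -2.02 ± 0.17 (limma adjusted p = 8.8e-07), and -2.21 with the block.

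All 5 isomaltase genes, which split the alpha-1,6 bond of isomaltose, fell in the same manner. IMA4 had 3.37, 3.64, 3.57 and 3.58 at 24 h and 0.21, 0.49, 0.74, 0.31 and 0.68 at 72 h. IMA2 had 3.02, 3.28, 2.99 and 2.86 against 0.35, 0.55, 0.21, 0.08 and 0.28. For IMA1 the slides gave 2.81, 2.80, 2.37 and 2.97 and then -0.12, -0.00, 0.19, 0.02 and 0.60. No 72 h slide reached a 24 h slide for any of them. The differences were -3.05 ± 0.27 for IMA4, -2.75 ± 0.19 for IMA2, -2.60 ± 0.24 for IMA1, -2.22 ± 0.23 for IMA3 and -1.73 ± 0.20 for IMA5, with limma adjusted p from 7e-08 (IMA2) to 7.5e-05 (IMA5). All 5 were called with the set as a block, at -1.78 to -2.82, and each call held when any one slide was left out.

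The remaining genes of the list did not follow. Of its 14 members tested, 8 fell and 1 rose, against 8.58% and 4.8% over all genes. The median difference was -1.33 (0.02 over all genes tested). The 7 glucosidase calls were kept with the set as a block, while the invertase gene SUC2 went from 1.29 ± 0.46 (SD, n = 4) to 0.35 ± 0.12 (SD, n = 5) and its change of -0.94 was not called with the block (adjusted p = 0.52), nor without 24 h replicate B or D or 72 h replicate A, B or C (adjusted p = 0.053 to 0.10). The gene that rose was the permease gene MPH2, by 0.65, a call lost in 10 of the 14 settings that left out a slide. In the RefSeq annotation (R64), the gene order at one locus is IMA1, MAL13, MAL11, MAL12. The transporter gene MAL11 had a mean of -0.13 ± 0.47 at 24 h and -0.36 ± 0.20 at 72 h, and the activator gene MAL13 between them had -0.95 ± 0.49 and -0.46 ± 0.28. Neither was called, though the flanking genes IMA1 and MAL12 fell 6.06-fold and 8.31-fold. At the second locus, the transporter MAL31 had 0.12 ± 0.13 and 0.25 ± 0.21 and the activator MAL33 had -0.06 ± 0.47 and 0.14 ± 0.10, again not called, next to MAL32. The maltose permease MPH3 had 0.63 ± 0.21 and 0.61 ± 0.24. MAL12 and MAL32 are near copies of each other, and so are several of the isomaltase genes. A cDNA spot can take up transcripts of a copy, so the separate values of the 7 glucosidase genes are uncertain.

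A group of 3 hexose transporter genes close to isomaltase genes had the same course. HXT9, which lies beside IMA4 and is known as a target of the Pdr regulators, had 4.14, 5.42, 4.45 and 5.13 at 24 h and 0.72, 0.75, 0.52, 0.25 and 0.25 at 72 h. The groups did not come near each other. Its difference of -4.28 ± 0.31 (limma adjusted p = 1.5e-07) was 19.5-fold, and it was -4.00 with the set as a block (adjusted p = 9.3e-08). HXT12, annotated as a pseudogene and separated from IMA3 by one ORF, went from 1.79, 4.34, 1.69 and 3.30 to 0.36, 0.57, 0.62, -0.12 and -0.27, a difference of -2.55 ± 0.46 (limma adjusted p = 0.0041). HXT11, beside IMA2, fell by 2.13 ± 0.39 (limma adjusted p = 0.0042) and missed the threshold with the block (adjusted p = 0.063). The 3 genes are near copies, and their values are uncertain in the same way. Of the 25 tested genes of the hexose transporter and glucose sensing list, HXT9 and HXT11 were the 2 that fell, and 5 rose. Over all genes, 8.58% fell and 4.8% rose.

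**Figure D3:**
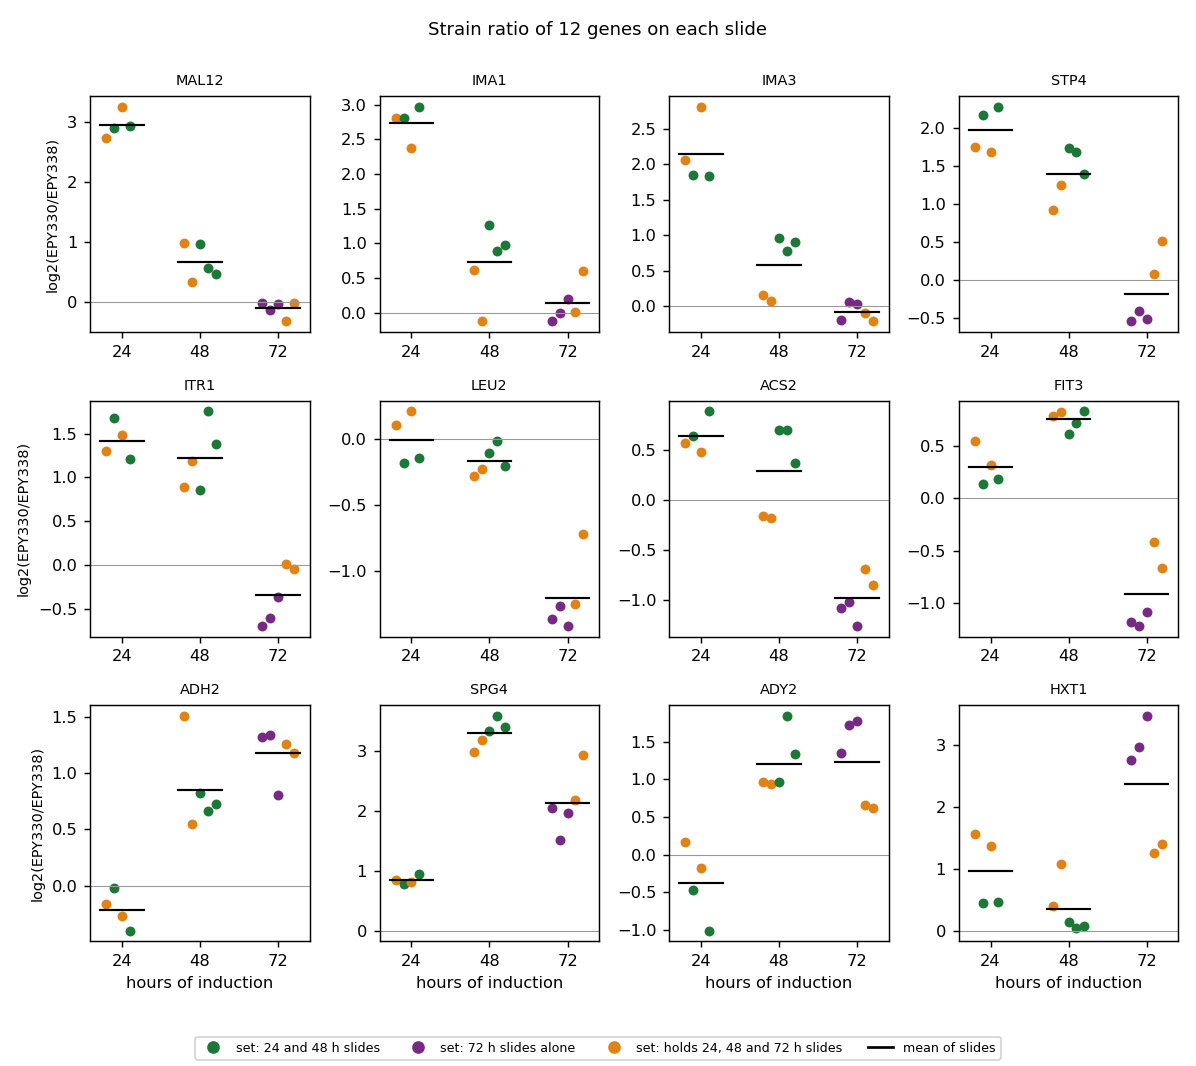
Log2(EPY330/EPY338) on each slide at 24, 48 and 72 h of induction for 12 genes, coloured by slide set, with the mean as a black line. MAL12 and IMA3 lie near 0 on all 72 h slides, in both sets that hold 72 h slides, and IMA1 reaches 0.60 on replicate E. HXT1, in contrast, is high at 72 h on replicates A, B and C. On 72 h replicates D and E it is close to 24 h replicates A and C.

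A further 5 genes of unrelated function fell in both fits. STP4, a zinc-finger protein related to the amino acid signalling factors Stp1 and Stp2, had 1.76, 2.17, 1.69 and 2.28 at 24 h and -0.55, -0.41, -0.52, 0.07 and 0.51 at 72 h. All 24 h slides lay above all 72 h slides. Its difference was -2.16 ± 0.24 (limma adjusted p = 3.5e-05) and -1.43 with the set as a block (adjusted p = 0.0016). MMS21, the SUMO ligase of the Smc5-Smc6 complex, fell by 1.70 ± 0.23, and RFA3, the small subunit of the single-strand DNA binding factor RPA, by 1.27 ± 0.21 (limma adjusted p = 0.0003 and 0.0027), and their block differences were -1.75 and -1.48. ICT1, an acyltransferase of lysophosphatidic acid, stayed above 0, with a mean of 3.45 ± 0.21 at 24 h and 1.28 ± 0.31 at 72 h. MRP4, a protein of the small mitochondrial ribosomal subunit, had 0.89, 0.63, 0.89 and 0.77 against -0.00, -0.03, 0.06, -0.02 and 0.06. In its list, 3 of 60 genes fell (5%) and 1 rose (1.67%), against 8.58% and 4.8% over all genes. The median difference of the list was -0.06, and MRP4 was its only member called with the block.

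The gene ACS2 codes for the acetyl-CoA synthetase that feeds the mevalonate pathway. Its ratios were 0.58, 0.64, 0.48 and 0.89 at 24 h and -1.08, -1.02, -1.26, -0.68 and -0.85 at 72 h. The producer was thus above the control on each early slide and below it on each late slide. The difference was -1.62 ± 0.21 (limma adjusted p = 0.00022) and -1.15 with the set as a block (adjusted p = 0.017). ACS2 is not a member of the mevalonate and sterol list. Of the 31 tested genes of that list, 11 fell and 2 rose, against 8.58% and 4.8% over all genes. The median difference was -0.50 on all slides and -0.27 with the block. Without 24 h replicate B, 2 fell and 0 rose. The C-8 sterol isomerase gene ERG2 went from 1.74 ± 0.29 to 0.26 ± 0.46, the mevalonate pyrophosphate decarboxylase gene MVD1 from 1.23 ± 0.19 to -0.15 ± 0.42, and the HMG-CoA synthase gene ERG13 from 0.18 ± 0.46 to -0.66 ± 0.22. Their differences of -1.47, -1.38 and -0.84 became -0.87, -0.97 and -0.65 with the block and were not called there. The call of ERG13 was also lost without 24 h replicate B or D or 72 h replicate A (adjusted p = 0.052 to 0.072). With the block, a single gene of the list was called, the sterol C-14 reductase gene ERG24, higher by 0.97 (adjusted p = 0.048), and it was not called in the fit of all slides (0.39).

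Of the 11 engineered and marker genes, 1 rose (9.09%) and 2 fell (18.2%), against 4.8% and 8.58% over all genes. With so few genes these shares say little about the list. LEU2 is deleted from the chromosome of both strains, so its spot reads the leu2d marker of the plasmid. Its ratios were 0.11, -0.18, 0.21 and -0.14 at 24 h and -1.36, -1.27, -1.41, -1.25 and -0.72 at 72 h. The strains were equal at 24 h, and every 72 h slide was below every 24 h slide. The difference of -1.20 ± 0.17 (limma adjusted p = 0.00065), a 2.29-fold fall, was -1.01 with the set as a block (adjusted p = 0.031). In non-selective medium, the paper reports that fewer cells kept the plasmid with active AMO than with inactive AMO. That was measured in strains without the repaired markers. Loss of the plasmid from part of the cells, a lower copy number and less transcript per plasmid cannot be told apart on these slides. ERG20, the farnesyl diphosphate synthase, went from 0.13 ± 0.28 to -0.71 ± 0.44 and HMG1, whose catalytic part is the engineered tHMGR, from -0.47 ± 0.19 to 0.40 ± 0.43. Both were called in the fit of all slides (limma adjusted p = 0.04 and 0.02), but with the block their differences of -0.23 and 0.46 were not, and the calls were lost without single slides (ERG20 without any 24 h slide or 72 h A, B or C, adjusted p = 0.06 to 0.10, and HMG1 without 24 h B or D or 72 h B or C, adjusted p = 0.056 to 0.072). GAL1, a target of the inducer, had means of 0.06 ± 0.29 and 0.06 ± 0.42, and ERG9, LYS2, URA3, HIS3, UPC2 and MET3 were not called. Of the 11 tested genes of the galactose regulon, GAL7 alone was called (9.09% higher, against 4.8% over all genes). It was higher by 0.86, a call lost in 6 of the 14 settings that left out a slide. The median difference of the list was 0.01.

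In the phospholipid list, 5 of 26 genes fell and 1 rose, against 8.58% and 4.8% over all genes. The list's median of -0.09 was 0.08 with the block. Its member ITR1, the main myo-inositol transporter, had 1.31, 1.68, 1.48 and 1.21 at 24 h and -0.69, -0.60, -0.36, 0.02 and -0.04 at 72 h. No slide of one time reached those of the other. The difference was -1.75 ± 0.21 (limma adjusted p = 9.7e-05) and -1.34 with the block (adjusted p = 0.025). The phosphatidylserine synthase CHO1 fell from 1.49 ± 0.14 to 0.24 ± 0.59, and the methyltransferases CHO2 and OPI3 fell by 1.12 ± 0.26 and 1.04 ± 0.23 (limma adjusted p = 0.0068, 0.013 and 0.011), with -0.65, -0.81 and -0.98 under the block, not called there. The call of CHO2 was lost without 24 h replicate D (adjusted p = 0.054) and that of OPI3 without 24 h replicate B (adjusted p = 0.053). The S-adenosylmethionine synthetases SAM1 and SAM2, which make the methyl donor, fell by 0.90 ± 0.20 and 1.34 ± 0.24, but with the block their differences of -0.68 and -0.67 were not called.

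Among genes of iron uptake under the regulator Aft1, 6 of 30 fell and 1 rose, against 8.58% and 4.8% over all genes. The median difference of -0.22 was -0.12 with the block. FIT3, a cell wall mannoprotein that holds siderophore iron, had 0.54, 0.14, 0.32 and 0.18 at 24 h and -1.18, -1.22, -1.08, -0.42 and -0.67 at 72 h. FET3, the multicopper oxidase of high-affinity uptake, had 0.17, 0.62, -0.16 and -0.07 and then -0.76, -1.23, -0.88, -0.98 and -0.88. Neither gene overlapped between the times. Their differences were -1.21 ± 0.18 and -1.09 ± 0.19 (limma adjusted p = 0.0012 and 0.0033), and -0.92 (adjusted p = 0.024) and -1.07 (adjusted p = 0.083) with the block. The siderophore transporter SIT1 fell by 0.99 ± 0.22 (3 slides at 24 h) and ISU1, a scaffold for iron-sulfur clusters, by 1.53 ± 0.27. Their block differences of -0.77 and -0.84 were not called.

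Single genes for the oxidation of ethanol, lactate and formate and for the transport of acetate were among those that rose. The acetyl-CoA synthetase gene ACS2 fell (above), and so did many genes of respiration (below). ADH2, the alcohol dehydrogenase that consumes ethanol, had -0.16, -0.02, -0.27 and -0.40 at 24 h and 1.32, 1.34, 0.80, 1.25 and 1.18 at 72 h. The producer went from slightly below the control to 2.26-fold above it, with no overlap. The difference was 1.39 ± 0.20 (limma adjusted p = 0.00065), and 1.35 with the set as a block (adjusted p = 0.029). ADY2, an acetate transporter, had 0.17, -0.47, -0.18 and -1.01 against 1.35, 1.72, 1.78, 0.66 and 0.62. Its difference of 1.60 ± 0.29 (limma adjusted p = 0.0041) was 0.96 with the block, not called. The lactate dehydrogenase CYB2 rose by 1.27 ± 0.27 and the formate dehydrogenase FDH1 by 1.02 ± 0.20 (limma adjusted p = 0.01 and 0.0063), and 1.06 and 0.54 under the block were not called. The list of acetate, formate and other subtelomeric carbon genes held 9 genes, of which 2 rose and 0 fell, and all 9 differences were above 0. Over all genes, 4.8% rose and 8.58% fell. The glyoxylate cycle, gluconeogenesis and acetate list did not share this shift, with 2 of 23 higher, 1 lower and a median of -0.04. Its gluconeogenic member PCK1 went the other way, from 0.95 ± 0.38 to -0.19 ± 0.47, and its call was lost without 24 h replicate B or D (adjusted p = 0.066 and 0.061).

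Single genes of stationary phase, fatty acid import and other functions rose as well. SPG4, a protein of stationary phase, had 0.85, 0.77, 0.82 and 0.95 at 24 h and 2.05, 1.52, 1.97, 2.18 and 2.93 at 72 h. It rose by 1.28 ± 0.22 (limma adjusted p = 0.0036) on all slides and by 1.81 with the block (adjusted p = 0.0014). ERR2, one of the enolase-related genes, had -0.61, -0.80, -0.88 and -0.77 against 0.10, 0.37, 0.10, 0.36 and 0.25, and rose by 1.0 ± 0.21 (limma adjusted p = 0.0088). It has near copies elsewhere in the genome, and its value is uncertain. CIT3, a mitochondrial citrate synthase, rose by 0.95 ± 0.19, PXA1, a subunit of the peroxisomal importer of fatty acids, by 0.93 ± 0.20, and MTD1, a dehydrogenase of one-carbon folate metabolism, by 1.34 ± 0.31 (limma adjusted p = 0.0085, 0.011 and 0.012). With the block these differences were 0.97, 1.03 and 1.55, no smaller, but not called (adjusted p = 0.063 to 0.14). SPG1, another stationary phase gene, rose by 1.12 ± 0.28, and its call was lost without 24 h B (adjusted p = 0.053) or 72 h C (adjusted p = 0.052). The lists themselves were mixed. Of 36 stationary phase genes, 5 rose and 4 fell, against 4.8% and 8.58% over all genes. Their median difference was -0.19, with 22 of the 36 below 0, and it was 0.07 with the block. Of 37 peroxisomal genes, 3 rose and 1 fell. The heat shock genes HSP12 and HSP26 were not called on all slides (0.72 and 0.46), but were called with the set as a block (1.30 and 1.15, adjusted p = 0.031 and 0.026).

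Many genes of protein synthesis and turnover were lower at 72 h. Of 128 cytosolic ribosomal protein genes tested (131 in the table), 61 fell and 0 rose, against 8.58% and 4.8% over all genes. The median of the list on a slide was 0.30 to 0.62 at 24 h and -0.39 to 0.20 at 72 h, with no overlap. The 72 h replicates D and E, of the third set, were the 2 above 0 at 72 h. The median difference was -0.65 on all slides, -0.26 with the block and -0.29 over the 4 slides of the third set, where 111 of 128 genes were lower at 72 h. RPS13, for example, had 0.57, 0.95, 0.46 and 0.77 at 24 h and -1.36, -1.29, -0.78, -0.24 and -0.55 at 72 h, a difference of -1.53 ± 0.23 (limma adjusted p = 0.0011) that became -0.89 (adjusted p = 0.089) with the block. Of 36 translation factors, 7 fell and 0 rose, with the elongation factor EFT2 at -1.21 ± 0.26 and the initiation helicase TIF1 at -1.05 ± 0.20 (-0.46 and -0.60 with the block, not called). Ribosome assembly factors (120 genes, 5 lower, 2 higher, median 0.00) and the subunits of RNA polymerases I and III (18 genes, 0 called) did not move with the ribosomal proteins. Many ribosomal protein genes, and also EFT2 and TIF1, have near copies, so their values are not independent. Without 24 h replicate B, 22 ribosomal protein genes, 1 proteasome gene and 7 respiratory genes were called lower.

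Of 32 proteasome subunits, 15 fell and 0 rose, against 8.58% and 4.8% over all genes. The list's median on a slide went from 0.42 to 0.71 at 24 h to -0.20 to 0.06 at 72 h. PRE5, a subunit of the core particle, had 1.33, 1.87, 2.37 and 1.39 at 24 h and -0.12, 0.32, -0.23, 1.22 and 0.58 at 72 h. Its difference was -1.39 ± 0.30 (limma adjusted p = 0.011) and -0.86 with the block, not called. The ubiquitin list had 5 of 32 genes lower (15.6%) and 0 higher, among them the polyubiquitin gene UBI4 (1.13 ± 0.24 to 0.05 ± 0.54). The call of UBI4 was lost without 24 h replicate B or D or 72 h replicate A, B or C (adjusted p = 0.050 to 0.062). The median difference of the proteasome list was -0.57 on all slides and -0.26 with the block. At the other end of protein handling, 2 of 27 cytosolic chaperones rose and 2 fell.

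Genes of respiration also had many members lower. Of 39 genes of the respiratory chain and ATP synthase, 19 fell and 0 rose, against 8.58% and 4.8% over all genes. The list went from 0.77 to 1.02 on the 24 h slides to -0.05 to 0.52 on the 72 h slides. SDH2, the iron-sulfur subunit of succinate dehydrogenase, had 1.70, 2.10, 2.12 and 2.20 at 24 h and -0.18, 0.02, -0.29, 0.90 and 1.18 at 72 h. On replicates D and E at 72 h it was therefore still well above 0. Its difference of -1.70 ± 0.30 (limma adjusted p = 0.0038) was -0.73 with the block (adjusted p = 0.32). SDH3, which anchors that enzyme in the membrane, fell by 1.67 ± 0.32, the ATP synthase subunit ATP7 by 1.55 ± 0.31, and the external NADH dehydrogenase NDE1 by 1.10 ± 0.20. Their block differences of -0.96, -0.54 and -0.65 were not called. The TCA cycle list had 7 of 17 genes lower and 2 higher, with CIT3 among the latter. Median differences of -0.63 for the chain and -0.47 for the cycle became -0.33 and -0.26 with the block. SHH4, a copy of the membrane anchor SDH4, was called higher with the set as a block (1.15, adjusted p = 0.026) and not on all slides (0.58). The mitochondrial ribosomal proteins, made for the same organelle, were at 0.15 to 0.21 on the 24 h slides and 0.06 to 0.25 on the 72 h slides.

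**Figure D4:**
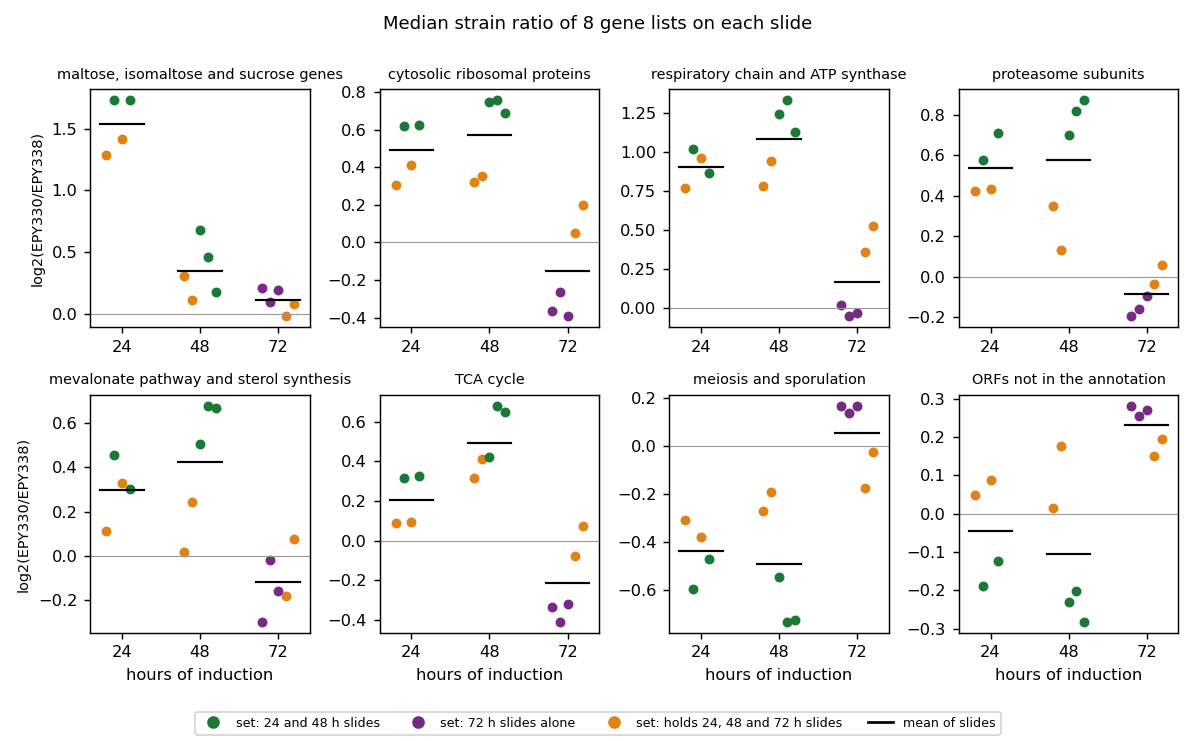
Median log2(EPY330/EPY338) over the members of 8 gene lists on each slide at 24, 48 and 72 h of induction, coloured by slide set, with the mean of the slides as a black line. The ribosomal, respiratory, proteasome, sterol and TCA lists are lower on every 72 h slide than on any 24 h slide, and the 72 h replicates D and E of the third set lie closer to the 24 h slides in the ribosomal, respiratory and TCA lists.

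Some genes of the cell surface and of proton pumps also fell. Of 52 cell wall synthesis genes, 11 fell and 2 rose, against 8.58% and 4.8% over all genes. KRE2, a mannosyltransferase, went from 1.05 ± 0.35 to -0.39 ± 0.43, and PST1, a GPI protein of the wall, from -0.09 ± 0.40 to -1.67 ± 0.69 (limma adjusted p = 0.0037 and 0.0077), and neither was called with the block. Of 31 mannoproteins of the TIR, DAN and related families, 8 fell and 1 rose. Among them CCW12 went from 0.94 ± 0.24 to -0.24 ± 0.35 and CIS3 from 0.06 ± 0.09 to -0.85 ± 0.25, and with the block their differences of -0.90 and -0.62 were not called. Of 21 V-ATPase and plasma membrane proton pump genes, 6 fell and 0 rose (2 without 24 h replicate B and 9 without 48 h replicate B), against 8.58% of all genes lower. VMA5 was at -1.25 ± 0.22 and PMP1, a small regulator of the pump Pma1, at -1.21 ± 0.21, but their block differences of -0.86 and -0.68 were not called. Of 10 histone genes, 4 fell and 0 rose on all slides and 0 were called with the block, and the calls of HHF1 and HHT1 were each lost in 6 of the 14 settings that left out a slide. YLR179C, a protein of unknown function, had 0.03, 0.95, 1.18 and 0.87 at 24 h and -1.52, -1.38, -1.12, -0.48 and -0.94 at 72 h, a difference of -1.85 ± 0.30 (limma adjusted p = 0.0019) that was -1.32 with the block and not called there.

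The drug efflux list, which holds the Pdr targets, had a part of its members lower. Of 46 genes, 13 fell and 2 rose, against 8.58% and 4.8% over all genes. The median difference, however, was 0.00 on all slides and -0.16 with the block. PDR5, the main ABC exporter, had 3.26, 2.39, 3.49 and 3.54 at 24 h and 2.38, 2.38, 2.16, 1.43 and 1.81 at 72 h. The strains thus still differed by far at 72 h, and only the excess shrank. The fall of 1.14 ± 0.30 (limma adjusted p = 0.022) was 1.48 with the block (adjusted p = 0.15), and the call was lost without 24 h replicate C or D (adjusted p = 0.053 and 0.080). Among its 13 falling genes, HXT9 and ICT1 above were the 2 called also with the block.

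More members rose than fell in the lists of meiosis and the cell cycle, which is read against 4.8% higher and 8.58% lower over all genes. Of 64 meiosis and sporulation genes, 11 rose and 0 fell, and the list's median on a slide went from -0.59 to -0.31 at 24 h to -0.17 to 0.17 at 72 h. SPS22, which acts in the building of the spore wall, had -1.28, -1.03, -0.41 and -1.20 at 24 h and 0.38, 0.58, 1.11, -0.12 and -0.38 at 72 h, a difference of 1.29 ± 0.29 (limma adjusted p = 0.012). With the block it was 0.46 and not called. The B-type cyclin gene CLB4 had -0.85, -1.11, -1.29 and -0.82 and then 0.03, 0.30, -0.10, -0.21 and -0.31, with no overlap, a difference of 0.96 ± 0.17 (limma adjusted p = 0.0041), and 0.81 with the block (adjusted p = 0.14). Of 62 DNA replication genes, 7 rose and 2 fell. Of 35 cyclin and G1 genes, 6 rose and 1 fell, and of 58 kinetochore, spindle and cohesin genes, 4 rose and 1 fell. The share of kinetochore genes that rose, 6.90%, was close to the 4.8% over all genes. Median differences of 0.48, 0.28, 0.25 and 0.35 for these 4 lists became 0.10, 0.01, -0.03 and 0.08 with the block. The cyclin list thus had the opposite sign with the block. The 11 meiosis calls were 1 without 24 h replicate B.

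Of the 422 tested ORFs that the annotation does not hold, 41 were higher (9.72%) and 14 lower (3.32%), against 4.8% and 8.58% over all genes. Their median difference of 0.29 was 0.04 with the block. Their median on a slide was -0.19 to 0.09 at 24 h and 0.15 to 0.28 at 72 h. Among the 12 largest rises outside the genes the study names were 2 of these ORFs, YAL066W (1.28 ± 0.27) and YCL046W (1.07 ± 0.32). Many such ORFs are thought not to code for protein, and the files hold no intensities, so the part of weak spots in the rise of these lists was not tested. The other large rises were PGM1, a minor phosphoglucomutase, at 1.13 ± 0.22, the spore wall gene LDS1 at 1.12 ± 0.25, SEF1, a putative transcription factor, at 1.07 ± 0.23 and SAW1, a partner of the Rad1-Rad10 nuclease, at 1.07 ± 0.27. With the block they were 0.57, 0.33, 0.42 and 0.23, and were not called. On all slides the calls of LDS1 were lost without 24 h B or D (adjusted p = 0.053 and 0.052), and those of SAW1 and YCL046W without 24 h B or D or 72 h A, B or C (adjusted p = 0.054 to 0.128), YCL046W also without 24 h C (adjusted p = 0.056).

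Genes under nitrogen catabolite repression had 5 of 27 members higher (4.8% over all genes) and 1 lower, and their median of 0.24 was 0.18 with the block. GAT1, an activator of these genes, went from -0.67 ± 0.15 to 0.17 ± 0.18, a difference of 0.84 ± 0.19 (limma adjusted p = 0.011), with a call that was lost without 24 h replicate B (adjusted p = 0.053) and with the block (0.71). The other 4 calls were less stable, with DAL2 and DAL7 lost in 5, DAL3 in 7 and DUR3 in 9 of the 14 settings that left out a slide. The high-capacity glucose transporter HXT1 and the high-affinity HXT2 were called higher as well, by 1.41 ± 0.40 and 1.23 ± 0.40 (limma adjusted p = 0.032 and 0.047). HXT1 had 1.56, 0.44, 1.36 and 0.46 at 24 h and 2.76, 2.97, 3.46, 1.26 and 1.39 at 72 h. The high values were those of 72 h replicates A, B and C alone. The 72 h replicates D and E, at 1.26 and 1.39, lay close to the 24 h slides of their own set, at 1.56 and 1.36. With the block the differences of HXT1 and HXT2 were -0.04 and -0.10. Without 24 h replicate B, D or 72 h A, B or C the calls of HXT1 were lost (adjusted p = 0.082 to 0.116), and those of HXT2 were lost in 8 of the 14 settings.

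**Figure D5:**
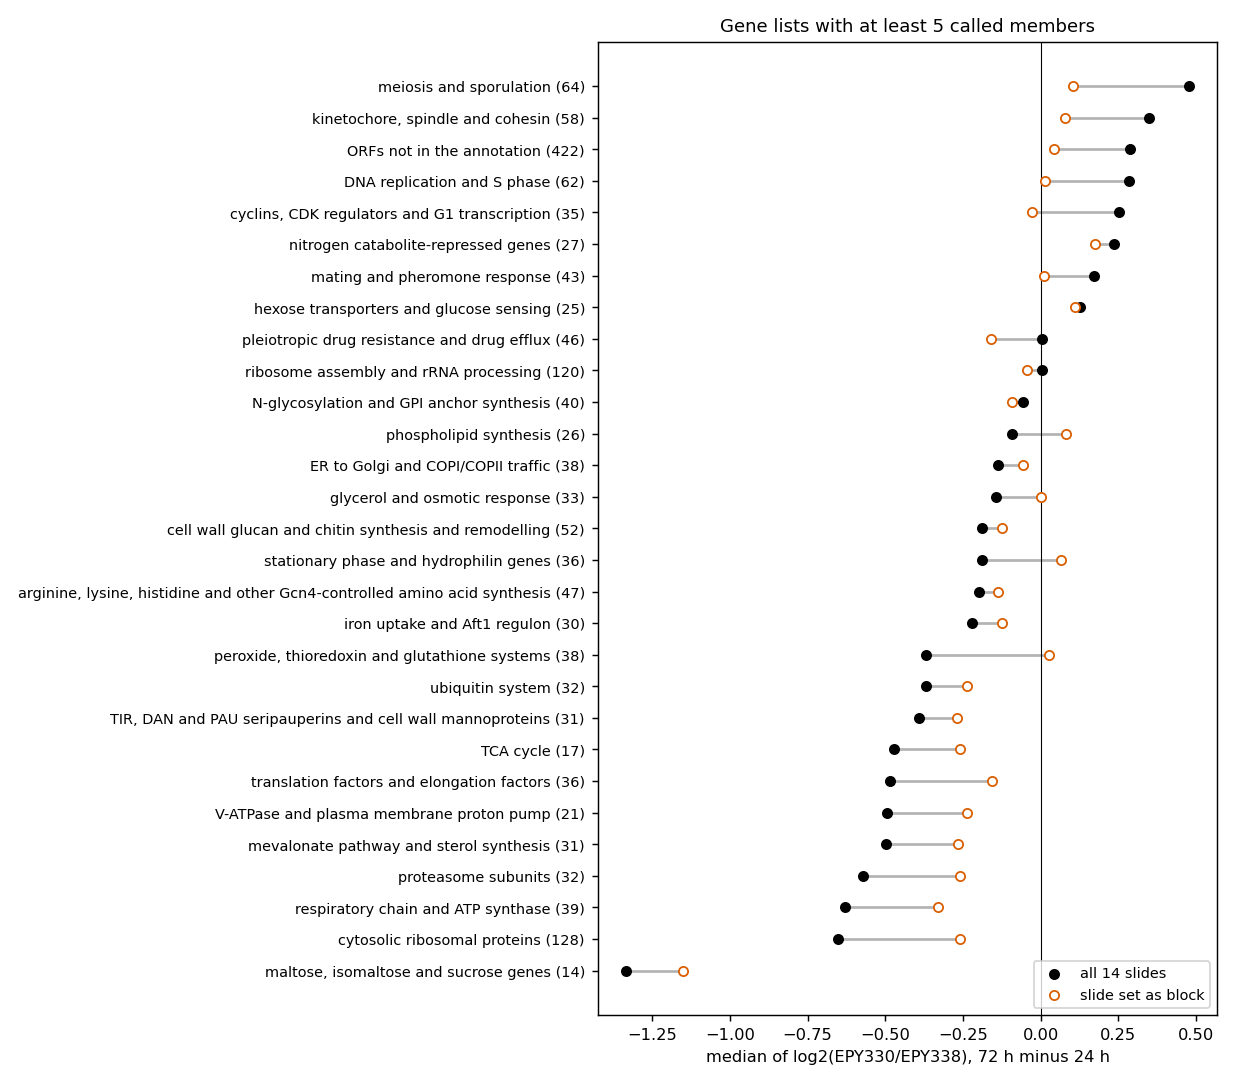
Median difference of log2(EPY330/EPY338), 72 h minus 24 h, over the members of gene lists with at least 5 called members (number of genes tested in parentheses), in the fit of all 14 slides (black) and with slide set as a block (open). The maltose, isomaltose and sucrose list moves from -1.33 to -1.15, the ribosomal list from -0.65 to -0.26, and the meiosis and cell cycle lists come close to 0.

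Genes of amino acid synthesis under Gcn4 had 9 of 47 members lower and 2 higher, against 8.58% and 4.8% over all genes. Their median of -0.20 was -0.14 with the block. The peroxide, thioredoxin and glutathione list had 5 of 38 lower (13.2%) and 0 higher, with a median of -0.37 that was 0.03 with the block. Mating genes were mixed, with 5 of 43 higher and 3 lower. Glycolysis had 2 of 20 genes higher (10%) and 1 lower (5%), against 4.8% and 8.58% over all genes, with a median of 0.09. The unfolded protein response and ER folding list had 2 of 27 lower, spliceosome genes 3 of 60 higher and 1 lower, nuclear pore genes 2 of 43 lower, and mediator, SAGA and RNA polymerase II genes 2 of 70 lower, all with medians between -0.13 and 0.11. Copper and zinc genes (1 of 19) and thiamine and related vitamins (1 of 38) had a smaller share of falling genes than the 8.58%. So did amino acid permeases (1 of 20) and vacuolar hydrolases with autophagy (2 of 38). Absence from the calls does not show that a gene kept its ratio.

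At 48 h the genes differed in course. The glucosidases were already most of the way down, with MAL12 at 0.67 ± 0.30 (SD, n = 5), MAL32 at 0.16 ± 0.17 and IMA1 at 0.73 ± 0.52. ITR1 and LEU2 were nearer to their 24 h means, at 1.22 ± 0.37 and -0.17 ± 0.11, and STP4 lay between its 24 and 72 h means, at 1.4 ± 0.34. SPG4 was higher at 48 h than at either other time, at 3.29 ± 0.23, and so was MTD1, at 2.31 ± 0.76, while ADH2 and ADY2 had reached 0.85 ± 0.38 and 1.21 ± 0.39. Over all genes that fell, median log2 ratios were 0.73, 0.65 and -0.22 at 24, 48 and 72 h in turn, and 450 of 499 had a 48 h mean nearer to that of 24 h. Of the 273 genes that rose and had at least 3 slides at 48 h, 240 were nearer to 24 h. No 48 h slide lay in the set of the 72 h replicates A, B and C, while 3 shared a set with 24 h replicates B and D, so time and slide set cannot be told apart in these counts.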

How the data were processed

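Both strains were compared on 14 two-colour cDNA slides. The deposited values were log2 ratios of EPY338 over EPY330. Per the labels and methods, the authors scanned with GenePix Pro, removed weak spots and normalized with lowess in BRB-ArrayTools. Lowess forces most ratios of a slide towards 0, and without intensities the precision of a spot cannot be given. The sign was flipped. Genes with values on at least 3 slides at 24 h and at 72 h were fitted with limma 3.58.1 (R 4.3.3) on all 14 slides, with Benjamini-Hochberg adjustment over 5814 genes. Of 6040 ORFs, 5546 matched the RefSeq annotation. The fit was first tested on simulated slides, where it recovered 62.5% of 200 changes of 1 log2 unit. Their errors were independent between slides, without slide sets, so this test cannot show how the sets affect the calls. Named genes were the 12 largest rises and 12 largest falls without overlap or missing values outside the genes the study names, up to 6 called members per list and direction, and the engineered genes. Exceptions chosen after their values were seen were the genes called with the slide set as a block. Comparisons, members and lists were chosen with earlier results of these data known. The slide sets (average linkage on correlation) and alternatives built on them were chosen after seeing the data. Other alternatives varied filters, imputation, scaling, weights, thresholds and the slides fitted. No sequences were used. One result is not reported here because its item is withheld.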

Additional observations from a re-analysis of the deposited data

Results flagged for a closer look

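The strain ratio differed between 24 and 72 h, by limma's test of the difference itself, for 778 genes. The 21 of these that were called in the same direction with the slide set as a block are listed here by their difference on the log2 scale. Of the carbohydrate genes, HXT9 was at -4.28, MAL12 at -3.06, IMA4 at -3.05, IMA2 at -2.75, IMA1 at -2.60, HXT12 at -2.55, IMA3 at -2.22, MAL32 at -2.02 and IMA5 at -1.73. Of the others that fell, ICT1 was at -2.17, STP4 at -2.16, ITR1 at -1.75, MMS21 at -1.70, ACS2 at -1.62, RFA3 at -1.27, FIT3 at -1.21, LEU2 at -1.20 and MRP4 at -0.78. Those that rose were ERR2 at 1.0, SPG4 at 1.28 and ADH2 at 1.39. One slide stood far from the others of its group, with SPG1 at -1.18 on 24 h replicate C. It was 1 of 48 groups examined, and chance alone marks about 1 in 20.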

How the results depend on the processing

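The count of 778 called genes (279 higher, 499 lower) became 1483 (653 and 830) with the 24 and 72 h slides alone, 1356 (592 and 764) with slides centred and scaled, 1364 (650 higher) with quantile normalization, 2701 (1317 and 1384) with array weights and 1770 (814 and 956) by SAM. It was 115 (16 and 99, with 4 that crossed 0) at an adjusted p under 0.01 and 240 (43 and 197) with a change over 2-fold. Leaving out single slides gave 164 to 1256 called, 28 to 528 higher, 136 to 728 lower and 11 to 87 that crossed 0, and moved the iron median of -0.22 to between -0.24 and -0.14 (-0.138 without 24 h D, -0.146 without 72 h B). The replicate letter as a block gave 1146 (485 higher). Same-lettered slides did not deviate together (r from -0.21 to 0.26). Whether slides with the same letter share an origin was not tested.

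Settings built on the slide sets were chosen after seeing the data. The set as a block gave 28 (9 and 19), the 4 slides of 1 set 28 (5 and 23), without the 72 h set 15 (2 and 13) and without the set of 24 and 48 h slides 29 (3 and 26). With the block, list medians were -0.26 for ribosomal, proteasome and TCA genes, -0.33 for respiration, -0.27 for sterols, -0.24 for proton pumps, 0.10 for meiosis and -0.12 for iron. On the 4 slides they were -0.29 (ribosomal), -0.37 (proteasome), -0.30 (proton pumps), 0.19 (meiosis) and -0.077 (iron). Without the 72 h set, meiosis was at 0.30 and iron at -0.11, and without the other set meiosis was at 0.32 and maltose genes at -1.09. HXT1 and HXT2 turned to -0.037 and -0.10 with the block and to -0.13 and -0.32 on the 4 slides. The cause was not tested. No intensities were used, so limits from weak spots are not known.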
